A study of Mus musculus with 17 samples.

Results

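The 34 interferon response genes described here are named targets and signalling parts of the interferon pathway, picked by symbol from the 54658 genes of a mouse RNA-seq table. All 34 had a row, and all 34 passed the filter on low values (at least 1 CPM, reads of a gene per 1000000 reads of its library, in at least 2 libraries), as did 17964 genes in all. The rule is a list of symbols with no threshold on a measured value, drawn up with earlier results of these data known.

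The study, titled as one of adipose-derived leptin and complement factor D in osteoarthritis severity and pain, sequenced fat from mice. Its implant groups were LD mice, described as male hosts in the design text, injected under the skin over the sternum at 3 to 5 weeks of age with mouse embryonic fibroblasts (MEFs), which formed fat-like tissue. Surgery destabilized the medial meniscus of the left knee at 16 weeks, and mice were killed at 28 weeks. MKM and MKF are implants from leptin knockout donors (KO implants), described as male and female with surgery. MWM and MWF are implants from wildtype donors (WT implants), described as male and female with surgery. EVM is endogenous visceral fat with surgery, EVFN is nonsurgical endogenous visceral fat, and EVFY is a visceral code that the labels do not spell out. ESM is endogenous subcutaneous fat of males with surgery. All implant groups had surgery, and the labels do not say whether the endogenous fat came from LD mice, whether animals were pooled or whether the 2 libraries of a code came from separate animals. All p-values therefore reflect variation among the deposited libraries alone, part of which may be technical.

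The 16 libraries held 16444965 to 25805502 reads, so that 1 read was worth 0.0388 to 0.0608 CPM. The labels call the tissue ganglia, but adipocyte markers summed to 10105 to 31086 CPM in every library and 11 sensory neuron markers to 7.39 to 71.7 CPM. Leptin RNA was at 1336, 1644 and 1726 CPM in KO implants, against 1888, 2675, 806 and 1019 CPM in WT implants; the labels do not describe the knockout allele, so this level does not check them. The library labelled EVFN1 stood apart from visceral fat, with mesothelial markers at 1.68 CPM against 158 to 449 CPM, and macrophage markers at 5823 CPM against 1240 to 2447 CPM. The library labelled MKM1 stood apart from KO implants, with mesothelial markers at 432 CPM against 1.40 to 21.8 CPM, and macrophage markers at 1787 CPM against 4888 to 6244 CPM. These 2 libraries are given singly, group means leave them out, and each test is given on the other 14 libraries and on all 16 as labelled. Implants also held transcripts typical of other organs: liver markers summed to 39.9 to 7170 CPM in KO implants and 2099 to 9591 CPM in WT implants, against 8.71 to 62.1 CPM in endogenous fat, and lung markers to 9.44 to 24.8 CPM in KO implants and 119 to 503 CPM in WT implants, against at most 0.397 CPM in endogenous fat, all within the 14 libraries. The library labelled EVFN1 had 2877 CPM of liver and 33.3 CPM of lung markers, and the library labelled MKM1 had 28.1 and 0.165 CPM. For mesothelial, macrophage and liver markers EVFN1 thus lay within the range of KO implants, and for these and lung markers MKM1 lay within the range of visceral fat. Whether the labels of this pair were exchanged was not tested, and every value on the 16 libraries as labelled counts EVFN1 as visceral fat and MKM1 as a KO implant.

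Type I interferons are secreted when a cell senses foreign or misplaced nucleic acid, and they act through a receptor made of Ifnar1 and Ifnar2. The kinases at the receptor phosphorylate Stat2, which acts with Irf9 in the complex ISGF3, and ISGF3 binds the interferon-stimulated response element (ISRE) in the promoters of its target genes. Many targets are antiviral proteins, some are the sensors and factors of the pathway itself, and a few restrain it. In fat, macrophages, endothelial cells and adipocytes can all respond. In bulk tissue, fewer cells of a type and less RNA per cell cannot be told apart.

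The 250 bases before the start site were held by the RefSeq table (build GRCm38.p6) for 24 of the 34 members, and were searched on both strands for the ISRE core GAAANNGAAA, in which N is any base. The core was found in 11 of these 24 members (45.8%), in 29 of 88 other genes of the pathway (33.0%) and in 936 of 27025 genes overall (3.46%). The interferon gamma element TTCNNNGAA was found in 4 of the 24 members (16.7%), against 8.13% of all genes. The 4 windows below are shown because Isg15, Ifit1 and Oas1a are classic targets and 2 of them carry results that follow, while Oasl1 is the member that rose in KO implants. Each is printed 5′ to 3′ on the gene's strand, with matches to the ISRE core in capitals. A match is a description of the letters, not a bound site.
Isg15, chr4:156200819-156201068, minus strand: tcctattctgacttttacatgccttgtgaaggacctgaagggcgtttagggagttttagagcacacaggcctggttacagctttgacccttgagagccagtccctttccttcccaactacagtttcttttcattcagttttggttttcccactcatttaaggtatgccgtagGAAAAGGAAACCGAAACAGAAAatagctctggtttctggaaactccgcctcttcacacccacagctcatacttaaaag
Ifit1, chr19:34640639-34640888, plus strand: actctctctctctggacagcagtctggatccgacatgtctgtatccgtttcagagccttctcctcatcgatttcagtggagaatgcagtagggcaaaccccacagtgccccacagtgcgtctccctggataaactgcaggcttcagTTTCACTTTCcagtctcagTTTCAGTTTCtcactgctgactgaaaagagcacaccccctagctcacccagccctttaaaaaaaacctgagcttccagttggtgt
Oas1a, chr5:120907526-120907775, minus strand: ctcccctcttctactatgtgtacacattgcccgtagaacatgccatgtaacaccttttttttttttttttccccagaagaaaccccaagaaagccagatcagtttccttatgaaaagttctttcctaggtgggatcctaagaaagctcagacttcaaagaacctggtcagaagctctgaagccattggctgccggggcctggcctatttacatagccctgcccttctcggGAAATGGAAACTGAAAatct
Oasl1, chr5:114922990-114923239, plus strand: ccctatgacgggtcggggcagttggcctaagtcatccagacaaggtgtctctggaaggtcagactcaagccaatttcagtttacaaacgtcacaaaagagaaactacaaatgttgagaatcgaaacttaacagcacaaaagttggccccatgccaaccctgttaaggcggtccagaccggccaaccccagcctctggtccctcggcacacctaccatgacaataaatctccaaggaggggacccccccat
The Isg15 window holds 3 overlapping matches, the Ifit1 window 2 separate ones and the Oas1a window 2 overlapping ones close to the start, while the Oasl1 window holds no match.

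Several members are neighbours in the genome (mm10, GENCODE M21 annotation). Ifit2, Ifit3 and Ifit1 lie within chr19:34550694-34650009. Oasl2 (chr5:114896936-114912234) and Oasl1 (chr5:114923240-114937915) are adjacent, and Oas2, Oas3 and Oas1a lie between 120730333 and 120907521 of the same chromosome. Rsad2 and Cmpk2 are neighbours on chromosome 12, as are Ifi27 and Ifi27l2a. Paralogs that can share reads are uncertain, such as Ifit3 with Ifit3b, Oas1a with Oas1g, Gbp2 with Gbp2b and Ifi27l2a with Ifi27l2b. The strand setting of the counting is not given in the sources used here, so reads of Irf7 and the opposite-strand Phrf1, of Dhx58 and Dhx58os, and of Rtp4 and Masp1 cannot be told apart where they overlap. Irf9 likewise overlaps Rnf31 on its own strand.

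Levels differed widely among the members. Per kilobase of exon, averaged over the 14 libraries, Ifi27l2a had the highest level, 860 CPM per kb, ahead of the viral entry inhibitor Ifitm3 with 212, Ifi27 with 117 and the virion tether Bst2 with 44.6 CPM per kb. The lowest levels per kilobase were those of Oas3 (0.537), the dynamin-like GTPases Mx2 (0.578) and Mx1 (0.913), and Ifi44 (0.962 CPM per kb). Mx2 is annotated as a polymorphic pseudogene. No member was at 0 reads in any library.

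The interferons themselves were scarcely detected. None of the 10 listed interferon genes passed the filter; Ifng, the highest, reached 0.439 CPM in EVFY2 and 0.426 CPM in MWF2, and Ifnb1 had at most 1 read in a library. A count of 0 allows up to 3 reads, or 0.116 to 0.182 CPM, counting error only. The receptor genes were well covered. Ifnar1 was at 97.7, 101 and 105 CPM in KO implants, 67.7, 66.97, 76.5 and 76.5 CPM in WT implants, 83.1, 69.4, 59.9, 66.7 and 59.3 CPM in visceral fat, and 63.4 and 54.7 CPM in subcutaneous fat. Within the 14 libraries, which leave out those labelled EVFN1 and MKM1, KO implants had the highest Ifnar1 values, with no overlap with the other tissues.

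**Figure D1:**
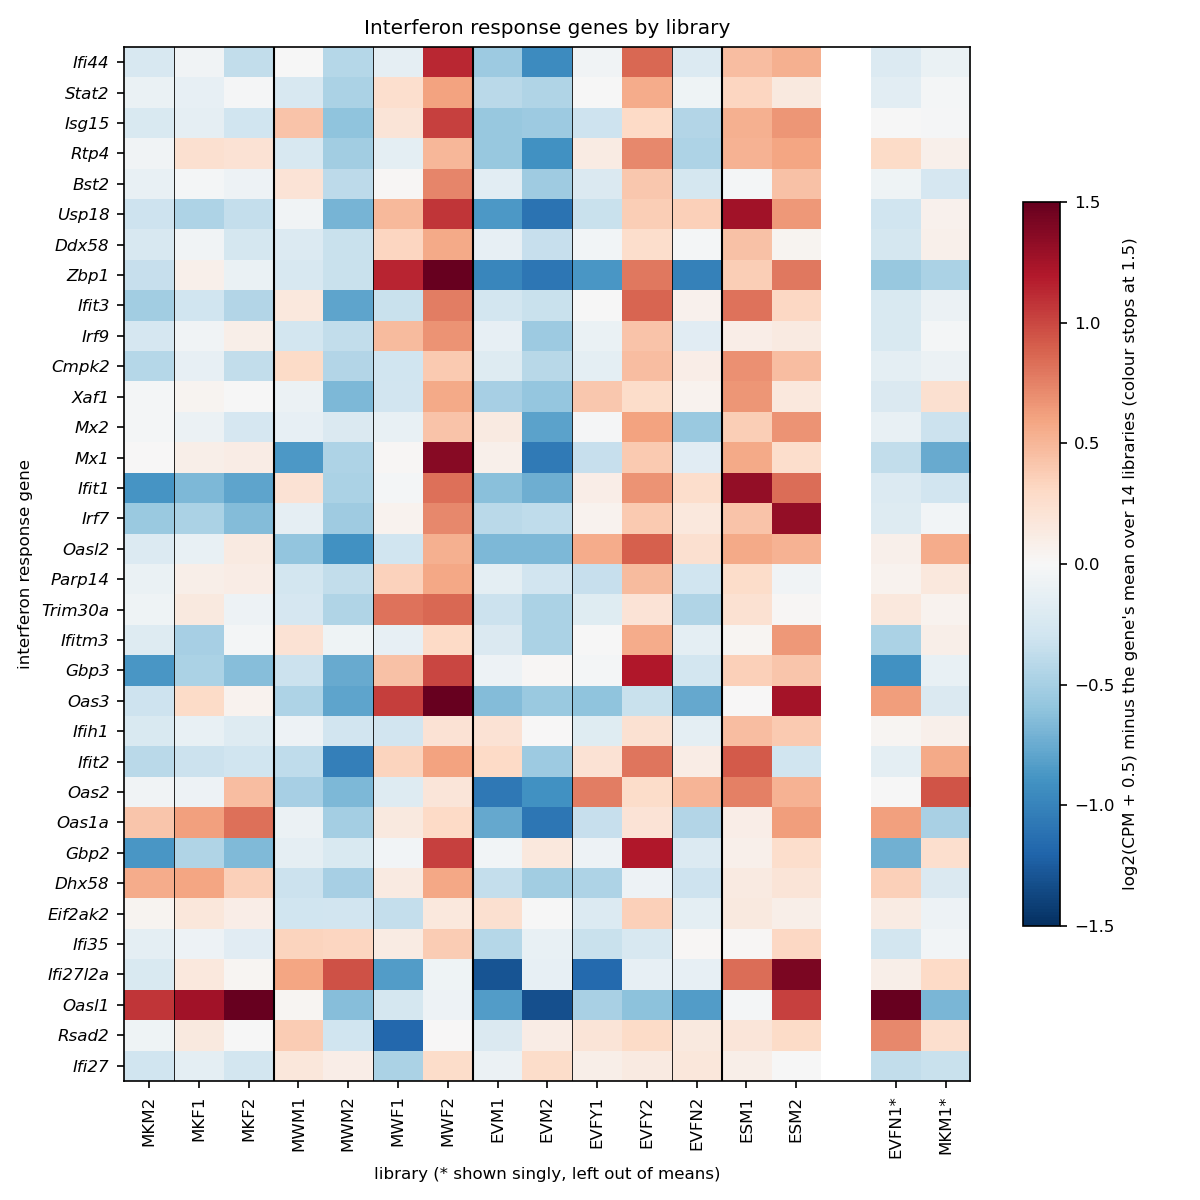
Colour gives log2(CPM + 0.5) of each of the 34 members (rows) minus its own mean over 14 libraries, by library (columns); rows run from the member most correlated with the others to the least, and the 2 libraries with a star are shown singly. MWF2, EVFY2 and both ESM libraries are red for most members, EVM2 and MWM2 are blue, and Oasl1 stands out in the KO implants.

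Most members moved together from library to library. The Pearson correlation of log2(CPM + 0.5) over the 14 libraries had a median of 0.53 over 561 pairs of members and was above 0 in 520 pairs. Against the mean of the other members, 28 of 34 correlated above 0.5, led by Ifi44 (0.95), Stat2 (0.92) and Isg15 (0.91). The 6 below 0.5 were Eif2ak2 (0.41), Ifi35 (0.34), Ifi27l2a (0.27), Oasl1 (0.23), Rsad2 (0.18) and Ifi27 (0.11). These values are descriptions, since libraries of a group and depth are shared. Outside the members, the 5 genes most like their mean were Parp10 (0.92), Otub2 (0.91), Necab3 (0.88), Ogfr (0.88) and Tns4 (0.86), over the same 14 libraries.

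In 3 of the 6 groups with both libraries kept, at least 31 of 34 members differed in the same direction between the libraries. All 34 members were higher in MWF2 than in MWF1, as were 69.2% of all genes tested; the median difference was 0.60 log2 units for members and 0.18 for all genes. In EVFY2, 31 of 34 were higher than in EVFY1 (62.8% of all genes), with medians of 0.56 and 0.12. In MWM2, 3 of 34 were higher than in MWM1 (41.5% of all genes), with medians of -0.28 and -0.05. The other 3 groups were more even: 18 members were higher in ESM2 than in ESM1, 11 in MKF2 than in MKF1 and 11 in EVM2 than in EVM1, where the medians were -0.15 for members and -0.13 for all genes. MWF2 had the highest value of the 14 libraries for 13 members, and EVM2 the lowest for 13. The mean log2(CPM + 0.5) of the 34 genes was 4.09, 4.25 and 4.21 in KO implants (MKM2, MKF1, MKF2), against 4.18, 3.86, 4.30 and 4.92 in WT implants (MWM1, MWM2, MWF1, MWF2). It was 3.91, 3.77, 4.15, 4.68 and 4.12 in visceral fat (EVM1, EVM2, EVFY1, EVFY2, EVFN2), against 4.69 and 4.73 in subcutaneous fat. KO implants formed a narrow band that lay inside the range of WT implants and below both subcutaneous libraries. The library labelled EVFN1 was at 4.24 and the library labelled MKM1 at 4.25.

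**Figure D2:**
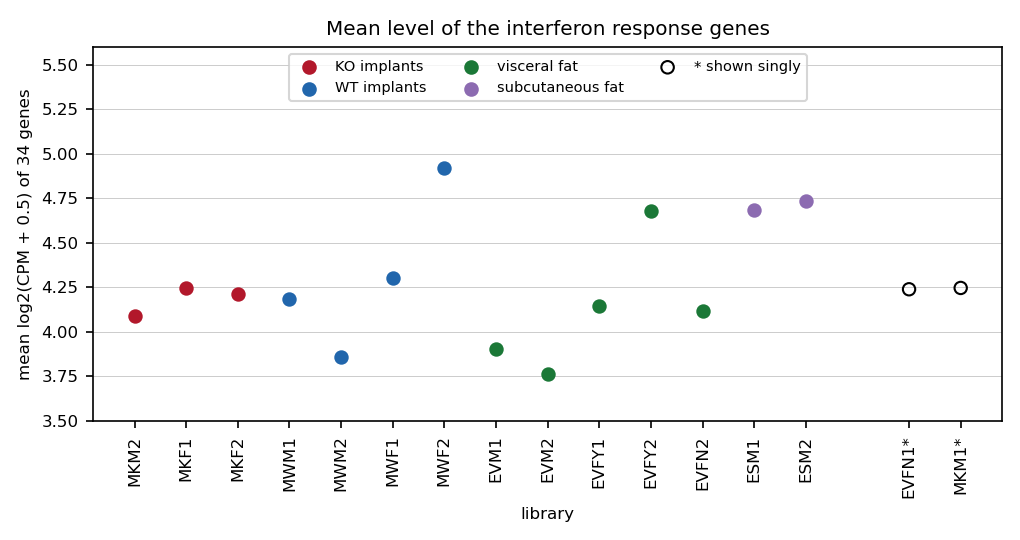
Each point is 1 library, and the vertical axis is the mean log2(CPM + 0.5) of the 34 genes. The 3 KO implant libraries lie between 4.09 and 4.25, WT implants spread between 3.86 and 4.92, and both subcutaneous libraries lie near 4.7; open circles are the 2 libraries shown singly.

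By role, the transcription factors come first. Stat2, a subunit of ISGF3, was at 44.9, 44.4 and 47.9 CPM in KO implants, 40.9, 34.7, 57.5 and 73.6 CPM in WT implants, 36.3, 35.3, 48.3, 71.2 and 46.1 CPM in visceral fat, and 60.5 and 53.4 CPM in subcutaneous fat. Irf9, its DNA-binding partner, was at 31.1, 35.6 and 39.4 CPM in KO implants, 30.5, 28.5, 51.5 and 59.2 CPM in WT implants, 33.9, 25.2, 34.6, 49.8 and 32.97 CPM in visceral fat, and 39.6 and 40.8 CPM in subcutaneous fat. Both were highest in MWF2, and the sides overlapped. Among the sensors, Ddx58 (RIG-I, a receptor of viral RNA) was at 35.1, 40.1 and 34.5 CPM in KO implants, 36.04, 32.8, 52.1 and 61.7 CPM in WT implants, 38.1, 32.6, 40.4, 49.99 and 40.7 CPM in visceral fat, and 56.5 and 42.8 CPM in subcutaneous fat. Ifih1 (MDA5, a receptor of long double-stranded RNA) was at 28.5, 31.1 and 29.3 CPM in KO implants, 31.9, 27.6, 27.4 and 39.1 CPM in WT implants, 39.2, 33.8, 29.6, 39.4 and 30.2 CPM in visceral fat, and 46.5 and 44.3 CPM in subcutaneous fat. Ifih1 was higher in both subcutaneous libraries than in any implant or visceral library of the 14.

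Among the regulators, Parp14, an ADP-ribosyltransferase, was at 69.3, 79.3 and 80.3 CPM in KO implants, 61.2, 57.5, 94.6 and 112 CPM in WT implants, 67.2, 60.7, 58.7, 104 and 60.2 CPM in visceral fat, and 90.5 and 71.9 CPM in subcutaneous fat. Trim30a, a TRIM protein known in mice to dampen Toll-like receptor signalling, was at 23.9, 27.6 and 23.7 CPM in KO implants, 20.8, 18.01, 44.4 and 45.5 CPM in WT implants, 19.8, 17.8, 21.9, 28.9 and 18.1 CPM in visceral fat, and 29.2 and 25.2 CPM in subcutaneous fat. Both MWF libraries lay above all other libraries for Trim30a. Among the effectors, Oasl2 was at 25.3, 27.1 and 32.1 CPM in KO implants, 19.3, 15.4, 23.6 and 42.6 CPM in WT implants, 18.1, 18.2, 43.2, 54.8 and 34.6 CPM in visceral fat, and 43.6 and 42.03 CPM in subcutaneous fat, and Ifit3, an RNA-binding antiviral protein, was at 10.8, 12.8 and 11.5 CPM in KO implants, 17.8, 8.92, 12.5 and 27.3 CPM in WT implants, 13.00, 12.4, 15.8, 29.4 and 16.6 CPM in visceral fat, and 28.2 and 19.8 CPM in subcutaneous fat. Ifi27, a small mitochondrial and membrane protein, was at 139, 154 and 140.2 CPM in KO implants, 191, 182, 122 and 206 CPM in WT implants, 160.2, 205, 180.4, 187 and 191 CPM in visceral fat, and 180.5 and 169.7 CPM in subcutaneous fat. Its relative Ifi27l2a was at 297, 388 and 355 CPM in KO implants, 526, 674, 194 and 334 CPM in WT implants, 142, 319, 155, 321 and 319 CPM in visceral fat, and 621 and 931 CPM in subcutaneous fat. Ifi27l2a was highest in ESM2, followed by MWM2, and its values differed more than 2-fold between EVM1 and EVM2 and between EVFY1 and EVFY2.

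Over the 14 libraries the remaining members spanned the following ranges. Isg15, a ubiquitin-like protein, ranged over 2.48 to 8.70 CPM, with its highest value in MWF2. The regulators Rtp4 and Xaf1 ranged over 5.74 to 18.8 and 8.36 to 21.9 CPM. Eif2ak2 (PKR), a kinase that stops translation on double-stranded RNA, ranged over 22.4 to 36.9 CPM, a narrow span. Mx1 ranged over 1.24 to 8.88 CPM and Ifit2, an RNA-binding protein like Ifit1, over 7.002 to 28.3 CPM. Rsad2 (viperin), which makes a chain-terminating nucleotide, ranged over 8.34 to 25.6 CPM, and its neighbour Cmpk2, a nucleotide kinase, over 10.6 to 23.7 CPM. Bst2 ranged over 26.9 to 65.4 CPM, Ifitm3 over 98.5 to 219.5 CPM and Ifi44 over 2.60 to 12.5 CPM. MWM2 held the lowest value of the 14 libraries for 9 of the 34 members.

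The comparison of knockout with wildtype donor cells is the one the implant groups were built for. In KO implants, Oasl1 rose and no member fell. Oasl1, an OAS-like protein known in mice to restrain translation of Irf7 mRNA, was at 15.4, 17.6 and 24.3 CPM in KO implants, against 7.19, 4.35, 5.79 and 6.69 CPM in WT implants. All 3 KO values lay above all 4 WT values, and the means were 19.1 ± 4.62 and 6.004 ± 1.25 CPM (SD) in KO and WT implants. The log2 fold change was 1.52 ± 0.30 (SE), with an adjusted p of 0.0146 (limma, Benjamini-Hochberg over all genes). This was 1 of 34 members past the threshold of 0.05, against 10.8% of all genes tested, 6.67% of them higher. With all 16 libraries as labelled, Oasl1 had a log2 fold change of 1.08 and an adjusted p of 0.278, no member passed and 1.72% of all genes did. The libraries labelled EVFN1 and MKM1 had 26.1 and 4.19 CPM of Oasl1. Leaving out MKF2 or MWM2 gave Oasl1 adjusted p-values of 0.0569 and 0.0553.

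The other members mostly had negative fold changes that did not pass. The signs were 10 positive and 24 negative, with a median of -0.24 against -0.06 for all genes, and 8 members had an unadjusted p under 0.05. Ifit1, which binds foreign RNA ends, was at 4.07, 4.78 and 4.38 CPM in KO implants, against 9.30, 5.59, 7.76 and 14.5 CPM in WT implants, a log2 fold change of -0.95 ± 0.28 with an adjusted p of 0.0635. Its KO values all lay below its WT values. Ifi35, an interferon-induced leucine zipper protein, was at 19.1, 20.2 and 18.8 CPM in KO implants, against 26.97, 26.7, 23.2 and 27.9 CPM in WT implants, also without overlap, with a log2 fold change of -0.43 ± 0.13 and an adjusted p of 0.0710. Gbp2, a guanylate-binding GTPase, was at 32.7, 44.2 and 38.1 CPM in KO implants, against 54.97, 51.6, 58.5 and 123 CPM in WT implants, again without overlap (adjusted p 0.126). In all, 2 members lay higher and 3 lower in KO implants without overlap, as did 14.3% and 12.6% of all genes, with 10.8% of genes called. Ifit1 passed with median-of-ratios and TMM scaling, edgeR and DESeq2. Without both MWF libraries the median over members was 0.07, against 0.08 for all genes, so the sign of the median rests on those libraries.

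Other pathway genes set beside them went both ways, in part by role. Of 95 tested, 9 rose and 8 fell in KO implants, where 10.8% of all genes were called and 6.67% rose. Those that fell were the interferon gamma target Tgtp1 and the type I targets Helz2, Ifi209, Ifi213, Ifit1bl1, Ly6e, Ms4a4c and Slfn1. The type I targets Tor3a and Trim25 rose. Every tested interferon gamma target had a negative log2 fold change, and Tgtp1 alone passed. In MKM against MWM, with MKM2 the only KO library, the interferon gamma targets had both signs. There the log2 fold changes of Helz2, Ifi209 and Ifit1bl1 were 0.17, 0.06 and 0.17. Those of Tgtp1, Ifi213, Ly6e, Ms4a4c and Slfn1 were -0.76, -0.60, -0.54, -0.76 and -0.29. In MKF against MWF the 8 genes that fell ran from -1.35 (Ly6e) to -3.37 (Ifi213). In KO against WT implants, 4 of 11 genes of sensing and adaptors rose and none fell. Tlr7, an endosomal receptor of single-stranded RNA, was at 40.4, 48.5 and 52.2 CPM in KO implants, against 13.8, 13.2, 13.7 and 12.3 CPM in WT implants. Tlr8 was at 73.01, 80.9 and 84.5 CPM in KO implants, against 18.4, 14.9, 11.8 and 11.6 CPM in WT implants. Both separated the sides completely, with log2 fold changes of 1.73 ± 0.16 for Tlr7 and 2.44 ± 0.22 for Tlr8, each with an adjusted p of 0.000462. Il10rb, a subunit shared by interleukin and lambda interferon receptors, had a log2 fold change of 0.94 ± 0.13 and an adjusted p of 0.00306. With all 16 libraries, none of the 95 rose and 4 fell. Macrophage markers moved with Tlr7 and Tlr8: 10 markers summed to 4888 to 6244 CPM in KO implants, against 1436 to 1815 CPM in WT implants. None of the markers was at 0 in any library. Their part in the Oasl1, Tlr7 and Tlr8 differences was not tested.

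**Figure D3:**
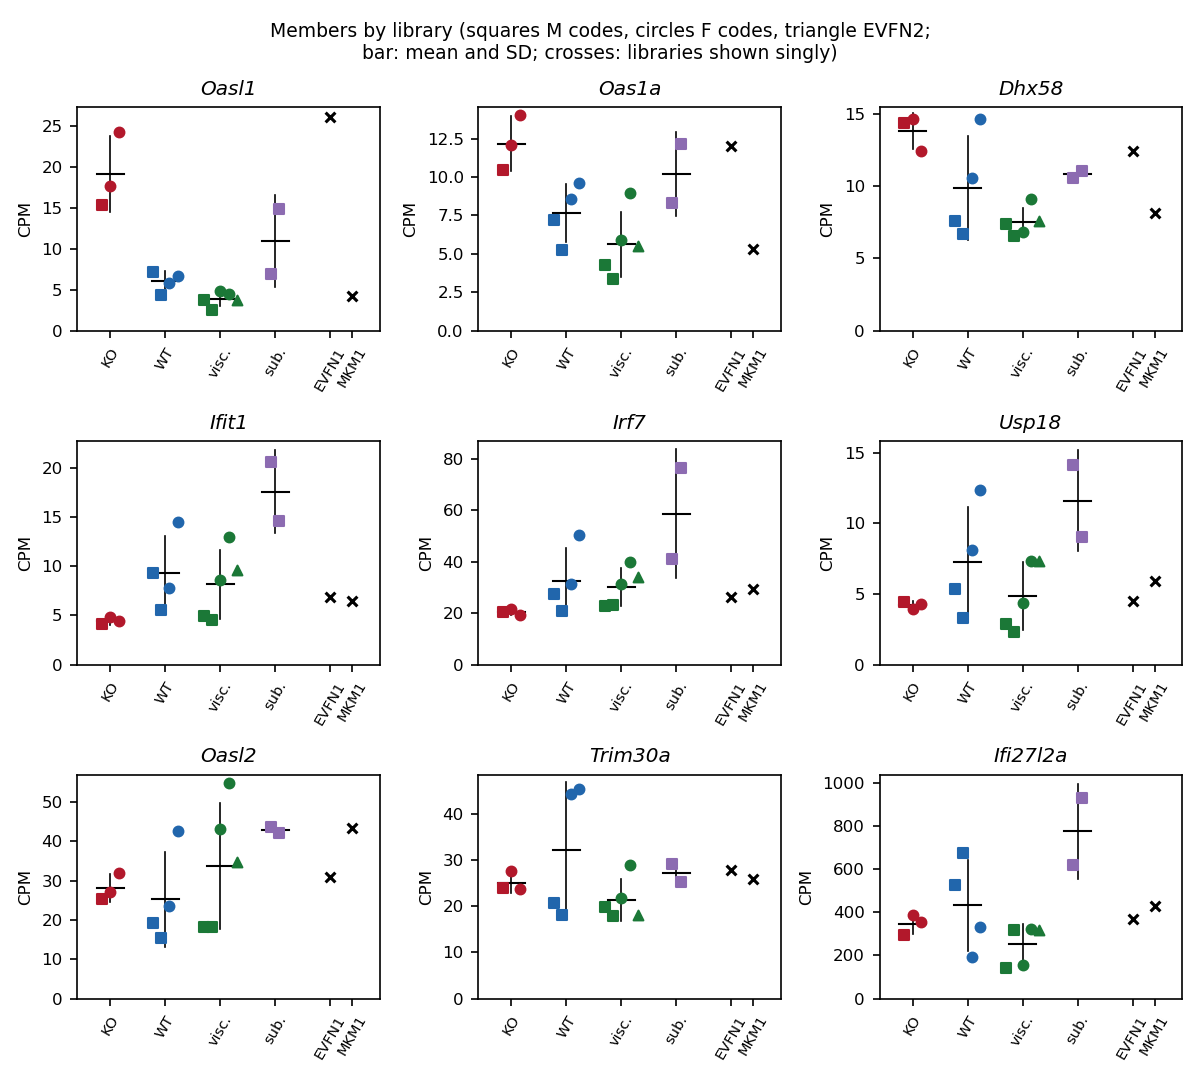
Points are CPM by library for 9 members in KO implants, WT implants, visceral and subcutaneous fat (bars: mean and SD of 3, 4, 5 and 2 libraries), with the libraries labelled EVFN1 and MKM1 as crosses. Without the crosses, Oasl1 is higher in all 3 KO implants than in any WT implant or visceral library, and Ifit1 is lower in all KO implants than in any WT implant.

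Within the male codes, with MKM2 as the only KO library, no member passed in MKM against MWM, where 1.39% of all genes did. Here 3 members had an unadjusted p under 0.05, edgeR called none and DESeq2 called Dhx58. Dhx58 (LGP2), a helicase that tunes RNA sensing by Ifih1 and Ddx58, was at 14.4 CPM in MKM2, against 7.56 and 6.66 CPM in MWM1 and MWM2. Its log2 fold change was 0.97 ± 0.26, with an adjusted p of 0.134. Oasl1 had a log2 fold change of 1.38 ± 0.46 and an adjusted p of 0.208. The lone MKM2 library is assumed to vary as the other groups do. With both MKM libraries as labelled no member passed either, and 0.00557% of all genes did.

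Within the female codes, 1 member rose and 3 fell in MKF against MWF, where 16.4% of all genes were called, 6% higher and 10.4% lower. Oasl1 was at 17.6 and 24.3 CPM in MKF1 and MKF2, against 5.79 and 6.69 CPM in MWF1 and MWF2, with a log2 fold change of 1.65 ± 0.37 and an adjusted p of 0.0200. Trim30a was at 27.6 and 23.7 CPM in MKF1 and MKF2, against 44.4 and 45.5 CPM in MWF1 and MWF2, with a log2 fold change of -0.80 ± 0.17 and an adjusted p of 0.0150. Neither overlapped between the sides. Gbp3, a relative of Gbp2, was at 15.1 and 13.4 CPM in MKF1 and MKF2, against 28.8 and 42.8 CPM in MWF1 and MWF2 (log2 fold change -1.27 ± 0.36, adjusted p 0.0438). Usp18, which removes Isg15 from proteins and dampens the receptor, was at 3.91 and 4.25 CPM in MKF1 and MKF2, against 8.08 and 12.3 CPM in MWF1 and MWF2 (log2 fold change -1.20 ± 0.35, adjusted p 0.0495). Over all members 8 signs were positive and 26 negative, with a median of -0.40 against -0.20 for all genes. On all 16 libraries none of the 34 passed, while 5.68% of all genes did. Leaving out MKF2 ended all 4 calls, and so did leaving out MWF1, when Ifit1 passed, or MWF2, when Rsad2 passed. Leaving out MKF1, EVM1, EVM2, MWM1 or MWM2 left Oasl1 and Trim30a, and leaving out ESM1 or ESM2 ended the calls of Gbp3 and Usp18. Sums of lymphocyte markers fell along with Trim30a, Gbp3 and Usp18, while Oasl1 rose. T and NK cell markers summed to 58.6 and 16.6 CPM in MKF1 and MKF2, against 384 and 527 CPM in MWF1 and MWF2. Of that list, Ncr1 was higher in MKF, at 1.30 and 0.816 CPM, against 0.425 and 0.791 CPM in MWF. Klrb1c overlapped, at 0.531 and 0.429 CPM in MKF1 and MKF2, against 0.266 and 1.09 CPM in MWF1 and MWF2. B cell markers summed to 147 and 8.20 CPM in MKF1 and MKF2, against 868 and 487 CPM in MWF1 and MWF2. Macrophage markers were at 5201 and 6244 CPM in MKF1 and MKF2, against 1603 and 1548 CPM in MWF1 and MWF2. The part of these markers in the 4 calls was not tested.

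The difference between these KO effects, male codes minus female codes, was tested directly. No member passed with limma or edgeR, 5 had an unadjusted p under 0.05, DESeq2 called Trim30a alone, and 0.562% of all genes were called by limma (1.21% on all 16 libraries, with no member). Trim30a had the smallest adjusted p, 0.104, with a difference of 1.10 ± 0.27 log2 units. Of the 34 differences 28 were positive, with a median of 0.48 against 0.25 for all genes. Effects within the male and the female codes are therefore not shown to differ.

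WT implants alone differed between the codes. In MWM against MWF, 7 members fell and none rose, where 13.7% of all genes were called and 12.2% fell. Trim30a was at 20.8 and 18.01 CPM in MWM1 and MWM2, against 44.4 and 45.5 CPM in MWF1 and MWF2, a log2 fold change of -1.19 ± 0.17 with an adjusted p of 0.00359. Oas3, a synthase that senses long double-stranded RNA, was at 2.11 and 1.58 CPM in MWM1 and MWM2, against 6.85 and 12.5 CPM in MWF1 and MWF2 (log2 fold change -2.07 ± 0.42, adjusted p 0.0157). Irf9 was at 30.5 and 28.5 CPM in MWM1 and MWM2, against 51.5 and 59.2 CPM in MWF1 and MWF2 (log2 fold change -0.89 ± 0.20, adjusted p 0.0211). All MWM values of these genes lay below all MWF values. Without overlap, 1 member lay higher and 19 lower in MWM, as did 17.5% and 43.8% of all genes. Stat2, Ddx58, Dhx58 and Zbp1, a sensor of Z-form nucleic acid, fell by 0.78, 0.71, 0.77 and 1.74 log2 units. The called members thus include Stat2, Irf9 and 3 of the 5 sensors of the set. Median-of-ratios scaling, which moved the median of all genes to 0.03 log2 units against -0.18 with CPM, kept Trim30a, Oas3 and Irf9 and gave a member median of -0.40 against -0.62. On all 16 libraries 6 members fell, where 9.26% of all genes were called and 8.85% fell.

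The 2 MWF libraries also carried lymphocyte transcripts, and MWF2 carried thymus markers besides. Rag1 and Rag2 were at 159 and 11.0 CPM in MWF2, against 0 CPM for both in MWF1. Among KO implants, MKM2 had 12.8 CPM of Rag1 and 0.560 CPM of Rag2. T and NK cell markers summed to 11.8 and 22.4 CPM in MWM, against 384 and 527 CPM in MWF. Of that list, Klrb1c and Ncr1 overlapped between MWM and MWF. B cell markers summed to 9.21 and 27.6 CPM in MWM, against 868 and 487 CPM in MWF. Of the 95 other pathway genes 38 fell and none rose, among them Tlr9, an endosomal DNA receptor, at 5.69 and 6.10 CPM in MWM1 and MWM2, against 42.5 and 31.01 CPM in MWF1 and MWF2, and Ptpn6, a phosphatase of blood cells, at 27.8 and 22.5 CPM in MWM1 and MWM2, against 131 and 109 CPM in MWF1 and MWF2. The part of these cells in the members' difference was not tested. Leaving out MWM1 or MWM2 kept Trim30a alone, leaving out MKF1 or MKF2 kept Trim30a, Oas3 and Irf9, and leaving out MWF1 or MWF2 gave 4 and 2 calls, Trim30a among them.

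Against endogenous visceral fat, 3 members rose in KO implants and none fell, where 24.6% of all genes were called and 16.3% rose. The visceral side held EVM, EVFY and the nonsurgical EVFN2, while all implants had surgery. Implant origin therefore cannot be told apart from code and surgery. Oasl1 was at 15.4, 17.6 and 24.3 CPM in KO implants, against 3.74, 2.52, 4.88, 4.44 and 3.74 CPM in visceral fat. Dhx58 was at 14.4, 14.6 and 12.4 CPM in KO implants, against 7.37, 6.51, 6.84, 9.10 and 7.60 CPM in visceral fat. Oas1a, an oligoadenylate synthetase that switches on RNase L, was at 10.4, 12.1 and 14.04 CPM in KO implants, against 4.30, 3.37, 5.93, 8.94 and 5.53 CPM in visceral fat. In each of the 3 genes every KO implant lay above every visceral library. The log2 fold changes were 2.10 ± 0.29 for Oasl1 (adjusted p 0.0014), 0.86 ± 0.17 for Dhx58 (adjusted p 0.00674) and 1.05 ± 0.21 for Oas1a (adjusted p 0.00803). The median of all 34 was 0.02, against 0.08 for all genes, and was -0.06 with median-of-ratios scaling. With all 16 libraries as labelled the adjusted p was 0.431 for each of the 3 genes, and 0% of all genes passed. The macrophage sum was 4888 to 6244 CPM in KO implants, against 1240 to 2447 CPM in visceral fat; its part was not tested.

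In WT implants, 4 members rose against visceral fat and none fell, where 22.3% of all genes were called and 15.8% rose. Trim30a was at 20.8, 18.01, 44.4 and 45.5 CPM in WT implants, against 19.8, 17.8, 21.9, 28.9 and 18.1 CPM in visceral fat, a log2 fold change of 0.52 ± 0.12 with an adjusted p of 0.0157. Ifi35 was at 26.97, 26.7, 23.2 and 27.9 CPM in WT implants, against 15.7, 19.6, 16.8, 17.9 and 21.5 CPM in visceral fat, a log2 fold change of 0.47 ± 0.11 with an adjusted p of 0.0215. Zbp1 was at 7.71, 7.17, 20.9 and 32.5 CPM in WT implants, against 4.41, 4.07, 4.78, 16.3 and 4.28 CPM in visceral fat, a log2 fold change of 1.28 ± 0.32 with an adjusted p of 0.0234. Only Ifi35 had no overlap between the sides. No other member lay entirely higher or lower in WT implants, against 9.33% and 5.00% of all genes. Oas3 also rose, by 1.03 ± 0.29 log2 units (adjusted p 0.0357). Without MWF1 and MWF2 the log2 fold change of Trim30a was -0.078 and that of Zbp1 0.41, and none of the 4 passed. T and NK cell markers summed to 11.8 to 527 CPM in WT implants, against 13.1 to 27.2 CPM in visceral fat, and B cell markers to 9.21 to 868 CPM in WT implants, against 7.75 to 32.0 CPM in visceral fat, with the high WT values in MWF1 and MWF2; their part was not tested. Ncr1 of the T and NK list was not high in MWF1 and MWF2, at 0.425 and 0.791 CPM, against 0.654 to 1.28 CPM in visceral fat. Leaving out MWM1 ended all 4 calls, and leaving out MWM2 left Trim30a alone. Without MWF2, Trim30a remained and Oasl2 and Rsad2 passed. On all 16 libraries Zbp1 and Ifi35 rose, where 9.66% of all genes were called and 8.03% rose. Comparisons of KO and of WT implants share the visceral libraries, so in both, implant origin cannot be told apart from code and surgery.

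Against subcutaneous fat, the members that passed the test all fell in implants, and most of the 34 did not pass. In KO implants 4 members fell and none rose against subcutaneous fat, where 18.2% of all genes were called and 4.87% fell. Ifit1 was at 4.07, 4.78 and 4.38 CPM in KO implants, against 20.6 and 14.6 CPM in subcutaneous fat, a log2 fold change of -1.89 ± 0.33 with an adjusted p of 0.00609. Irf7, the factor that amplifies type I interferon production, was at 20.5, 21.6 and 19.1 CPM in KO implants, against 41.1 and 76.4 CPM in subcutaneous fat, a log2 fold change of -1.43 ± 0.29 with an adjusted p of 0.0116. Usp18 was at 4.43, 3.91 and 4.25 CPM in KO implants, against 14.1 and 9.06 CPM in subcutaneous fat, a log2 fold change of -1.32 ± 0.33 with an adjusted p of 0.0252. All 3 genes had every KO value below both subcutaneous values. Ifih1 also fell, by 0.62 ± 0.19 log2 units (adjusted p 0.0495). The signs were 3 positive and 31 negative, with a median of -0.57 against 0.12 for all genes. In 27 of 34 members every KO library lay below both subcutaneous libraries, as in 18.7% of all genes. As labelled, the 16 libraries gave no call (Ifit1 -1.74, adjusted p 0.0617), 10 members had an unadjusted p under 0.05, and 0.273% of all genes passed. Leaving out ESM1, MKF1 or MKF2 left Ifit1 and Irf7, and leaving out ESM2 left Ifit1 and Usp18. Schwann and glial markers summed to 107 to 140.3 CPM in KO implants, against 602 and 751 CPM in subcutaneous fat, and macrophage markers to 4888 to 6244 CPM in KO implants, against 1259 and 1791 CPM in subcutaneous fat. Their part in these calls was not tested.

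In WT implants 2 members fell and none rose against subcutaneous fat, where 10.4% of all genes were called and 1.82% fell. Oas2 was at 8.79, 7.74, 10.9 and 14.4 CPM in WT implants, against 21.7 and 18.3 CPM in subcutaneous fat, a log2 fold change of -0.94 ± 0.21 with an adjusted p of 0.0264. Oasl2 was at 19.3, 15.4, 23.6 and 42.6 CPM in WT implants, against 43.6 and 42.03 CPM in subcutaneous fat, a log2 fold change of -0.86 ± 0.22 with an adjusted p of 0.0429. Oasl2 in MWF2 lay between the 2 subcutaneous values, and the other WT values lay below both. The signs were 4 positive and 30 negative, with a median of -0.38 against 0.14 for all genes. The 16 libraries as labelled gave no call, with 2.47% of all genes called, and leaving out ESM1, ESM2, MWM1 or MWM2 ended both calls. Leaving out MWF1 left Oasl2, and leaving out EVFY1, EVFY2, MKF1 or MKF2 left Oas2. Schwann and glial markers summed to 191 to 272 CPM in WT implants, against 602 and 751 CPM in subcutaneous fat, and their part was not tested. Of the 95 other pathway genes 15 rose and 8 fell in KO implants, where 18.2% of all genes were called and 4.87% fell. In WT implants 9 rose and 3 fell, where 10.4% of all genes were called and 1.82% fell. These comparisons share both ESM libraries.

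**Figure D4:**
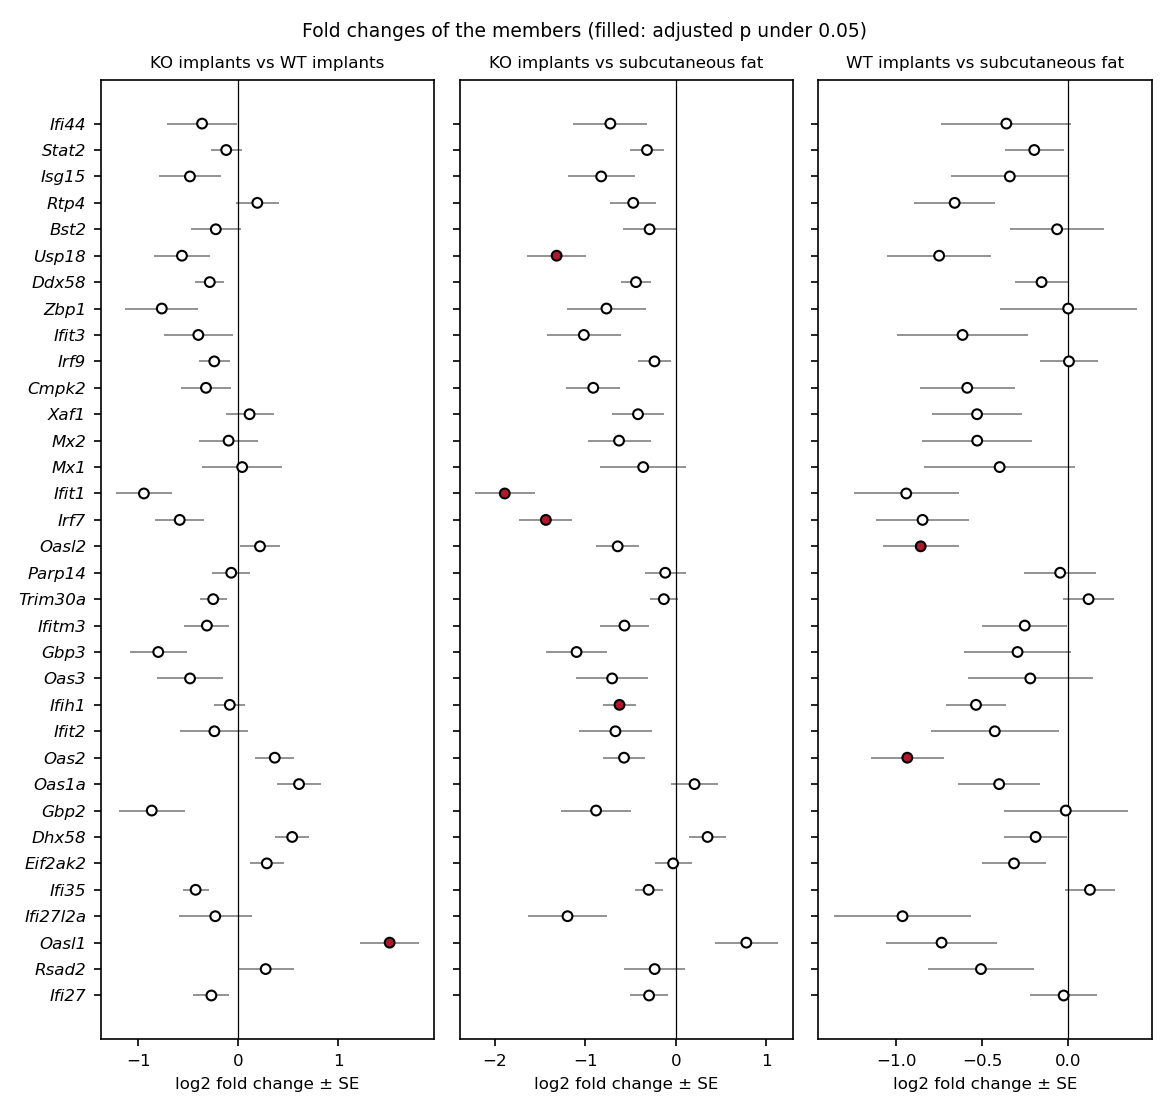
Points are log2 fold changes with their SE for the 34 members in KO against WT implants and in each implant type against subcutaneous fat; filled points passed an adjusted p of 0.05. Oasl1 is the only filled point on the left, and nearly all points of the other panels lie below 0.

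Between the endogenous depots, no member passed in visceral against subcutaneous fat with limma or edgeR, DESeq2 called 10, and 1.2% of all genes passed with limma (0.323% on all 16 libraries, with no member). The signs were 1 positive and 33 negative, with a median of -0.48 against 0.05 for all genes, and 16 members had an unadjusted p under 0.05. The subcutaneous side was ESM alone, from males with surgery. The visceral side also held EVFY and the nonsurgical EVFN2, so depot cannot be told apart from code and surgery. Oasl1 was at 3.74, 2.52, 4.88, 4.44 and 3.74 CPM in visceral fat, against 6.92 and 14.9 CPM in subcutaneous fat, a log2 fold change of -1.32 ± 0.32 with an adjusted p of 0.130. Ifi27l2a had a log2 fold change of -1.62 ± 0.39 and an adjusted p of 0.134, and Usp18 one of -1.16 ± 0.30 and 0.162. In 10 members every visceral library lay below both subcutaneous libraries, as in 4.05% of all genes. Macrophage markers were similar in range, 1240 to 2447 CPM in visceral and 1259 to 1791 CPM in subcutaneous fat, while Schwann and glial markers were at 56.2 to 104 CPM in visceral against 602 and 751 CPM in subcutaneous fat. The part of these in the members' levels was not tested.

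For EVFY against EVFN, with EVFN2 alone on its side, no member passed with limma, edgeR or DESeq2, 1 had an unadjusted p under 0.05, and 0% of all genes passed. The signs were 30 positive and 4 negative, with a median of 0.32 against 0.08 for all genes. EVFY1 and EVFY2 differed from each other by a median of 0.56 log2 units in these genes, more than EVFY differed from EVFN2.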

How the data were processed

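The authors deposited 1 table of CPM values for 16 libraries, in which each column sums to 1000000; 17 samples are labelled, and ESF was not analysed here. Per the labels' protocols, ribosomal RNA was removed with RNase H and cDNA was made from random hexamers, while the molecule is labelled polyA RNA. The submitters' processing notes name build mm10 and, without roles or settings, featureCounts, Subread 1.6.3, STAR 2.5.4, FastQC 0.11.4 and cutadapt 2.7; no source used here gives the annotation release. Of the deposited CPM values, 100% were whole multiples of 1 read (tolerance 0.001 reads), which returned read counts.

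Tests used limma 3.58.1 (R 4.3.3; trend, robust) on log2(CPM + 0.5) in 1 model of 8 group means, 14 libraries and 6 residual degrees of freedom, with Benjamini-Hochberg adjustment over 17964 genes. Groups of a side were weighted equally. Fold changes on this scale understate low genes. Alternatives were the counts with edgeR 4.0.16 and DESeq2 1.42.0, and other scalings, pseudocounts, filters and libraries. The code was tested on simulated data. Libraries of a group differed by 24.0 to 117 chi-square units per degree of freedom in the 6 groups with both libraries kept, more than sampling noise, and by 205 (MKM) and 225 (EVFN) with the libraries set aside. Described by values are the 2 members with the highest mean in each role, and up to 3 with the smallest adjusted p in each comparison, plus a few members and pathway genes given because they were called or did not overlap, which were picked with their values in view. Members and lists were chosen with earlier results of these data known. Promoters are from RefSeq (GRCm38.p6).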

Additional observations from a re-analysis of the deposited data

Results flagged for a closer look

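Among 68 sets of values looked at (34 members in the 4 WT implant libraries and in the 5 visceral libraries), 9 had a highest library far from the others for the size of the group. For normally distributed values of a single group, chance gives about 1 in 20, or 3.4 of 68. These sets hold CPM values of more than 1 code, and members share libraries, so that share is only a rough guide. In WT implants MWF2 stood apart for Eif2ak2 (32.3 CPM), Mx2 (2.86 CPM) and Gbp2 (123 CPM). In visceral fat EVFY2 stood apart for Zbp1 (16.3 CPM), Isg15 (5.10 CPM), Parp14 (104 CPM), Ifit3 (29.4 CPM), Gbp2 (139 CPM) and Gbp3 (49.3 CPM). All 9 were high values, 3 in MWF2 and 6 in EVFY2.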

How the results depend on the processing

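Counts of members past the threshold moved with the setting. With all 16 libraries as labelled they were 0 for KO against WT implants, MKF against MWF, KO implants against visceral fat, KO implants against subcutaneous fat and WT implants against subcutaneous fat, and 2 for WT implants against visceral fat. Median-of-ratios scaling gave 3 (KO against WT), 3 (MWM against MWF), 6 (KO against visceral), 8 (KO against subcutaneous) and 6 (WT against subcutaneous). TMM gave 3 (KO against WT), 5 (KO against visceral), 8 (KO against subcutaneous) and 6 (WT against subcutaneous). edgeR gave 3 (KO against WT), 3 (MWM against MWF), 5 (KO against visceral) and 8 (KO against subcutaneous). DESeq2 gave 5 (KO against WT), 1 (MKM against MWM), 7 (MKF against MWF), 1 (difference between codes), 8 (KO against visceral), 12 (KO against subcutaneous), 8 (WT against subcutaneous) and 10 (visceral against subcutaneous). Without the filter there were 2 (MKF against MWF), 3 (MWM against MWF) and 1 (WT against subcutaneous). A fit of the compared groups only gave 3 (KO against WT), 5 (KO against visceral), 7 (KO against subcutaneous) and 1 (WT against subcutaneous). Without MWF1 and MWF2 there were 3 (KO against WT), 5 (KO against visceral) and 1 (WT against visceral), and the log2 fold change of Trim30a in WT implants against visceral fat reversed to -0.078. Leaving out 1 library at a time gave 0 to 3 (KO against WT), 0 to 5 (MKF against MWF), 1 to 9 (MWM against MWF), 3 to 5 (KO against visceral), 0 to 5 (WT against visceral), 2 to 5 (KO against subcutaneous), 0 to 3 (WT against subcutaneous) and 0 to 1 (visceral against subcutaneous). The cause of these moves was not tested. EVFY against EVFN gave 0 members in each setting run.

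Whether replicate numbers pair the libraries was not settled. Over 15 pairs of groups, same-numbered deviations correlated between -0.44 and 0.34, above 0.1 in 7, with no reference value for unpaired libraries. With the replicate number as a block, 1 member passed in visceral against subcutaneous fat (Ifi27l2a) and 1, 3, 7, 3, 5, 4 and 2 in KO against WT, MKF against MWF, MWM against MWF, KO and WT against visceral, and KO and WT against subcutaneous fat. Of 807 values of single members under alternatives, 723 kept direction and side of the threshold, 68 lost the call, 15 gained one and 1 reversed. Without MKM2 the comparison of MKM with MWM and the difference between codes, without EVFN2 that of EVFY with EVFN, and without both MWF libraries every comparison within MWF could not be fitted. Depth limits the lowest members most, since 1 read was worth 0.0388 to 0.0608 CPM.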
